A study of Mus musculus with 12 samples.

Results

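The nuclear genes of oxidative phosphorylation were taken by symbol: protein-coding genes of the complex I family (Nduf), succinate dehydrogenase (Sdh), the bc1 complex (Uqcr and Cyc1), the nuclear cytochrome c oxidase subunits (Cox4 to Cox8) and the ATP synthase (Atp5), outside the mitochondrial chromosome. The rule took 86 of the 49315 gene identifiers in the count files. Another 11 identifiers with such symbols were processed pseudogenes and were left out. Of the 86 genes, 81 had enough counts to be tested, beside 14061 genes tested in all. By complex, the tested genes numbered 36 of 36 for complex I, 4 of 4 for complex II, 9 of 9 for complex III, 15 of 20 for complex IV and 16 of 16 for complex V, with Atp5s, an ATP synthase-related factor of low abundance, kept apart. Ndufa4 and Ndufa4l2 were placed with complex IV, in which NDUFA4 is known to sit.

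Oxidative phosphorylation couples the transfer of electrons from NADH and succinate to oxygen with the pumping of protons across the inner mitochondrial membrane, and the returning protons drive ATP synthesis. Complexes I and II feed electrons into the chain, complex III passes them to cytochrome c, complex IV reduces oxygen, and complex V makes ATP. Most subunits are encoded in the nucleus and imported, while a small core is encoded in mitochondrial DNA, and hepatocytes, which carry many mitochondria, use the pathway to power biosynthesis and detoxification.

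Each age was represented by 3 mice of the C57BL/6 strain, at 3 months for the young and 27 months for the aged animals. Hepatocytes were released by collagenase perfusion, sorted into a diploid and a polyploid fraction on DNA content (Hoechst) and a reporter that all groups share, and turned into SMART-Seq v4 libraries, giving 4 groups of 3 libraries and 12 libraries in all. The sources used here do not name the reporter, its promoter or any treatment. Libraries with the same number and age were taken as the fractions of 1 mouse, so diploid and polyploid values were paired by that number. Young and aged values come from different mice.

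Promoters of this gene group are known for sites of NRF1, of ETS factors such as GABP, and of YY1. RefSeq promoter windows (GRCm38.p6, from 250 bases before to 50 bases after the start) were found by symbol for 67 of the 86 genes. The 5 stretches below, each of 60 bases and 5′ to 3′ on the gene's strand, show an ETS-type match in the promoters of Atp5e and Uqcr11, which carried some of the highest polyploid to diploid ratios, and an NRF1-type match in one promoter each of complexes V, IV and I. Capitals mark the matched letters, which are CCGGAAG or its reverse complement for ETS and GCGCA and GCGC with any 1 base between them, or the reverse complement, for NRF1. All 5 genes lie on the minus strand, and positions are counted from the start site.
Atp5e: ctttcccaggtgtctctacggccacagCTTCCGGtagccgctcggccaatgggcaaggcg
Uqcr11: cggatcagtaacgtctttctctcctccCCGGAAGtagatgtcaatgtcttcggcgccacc
Atp5h: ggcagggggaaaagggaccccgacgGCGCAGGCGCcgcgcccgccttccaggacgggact
Cox6a1: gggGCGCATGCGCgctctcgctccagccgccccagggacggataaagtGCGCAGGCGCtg
Ndufs5: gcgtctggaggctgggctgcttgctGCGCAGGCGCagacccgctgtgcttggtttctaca
The Atp5e stretch is chr2:174464171-174464230, with the ETS-type letters on the opposite strand from -102 to -96. The Uqcr11 stretch is chr10:80406855-80406914, with the match starting at -66. The Atp5h stretch is chr11:115420026-115420085, with the match starting at -141. The Cox6a1 stretch is chr5:115349064-115349123 and holds 2 matches, starting at -162 and -117, of which the first reads as a match on both strands. The Ndufs5 stretch is chr4:123718250-123718309, with the match starting at -98.

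Across the 67 promoters, the NRF1-type letters stood in 17 (25.4%, against 5.19% of all genes in the table), the ETS-type letters in 16 (23.9% against 9.93%) and the YY1-type letters AAGATGGCG in 7 (10.4% against 1.64%). At least 1 of these 3 was found in 34 promoters (50.7% against 15.1%). The letters ACTACAA and TCCC with any 1 base between them, of the ZNF143 type, stood in 4 promoters (5.97% against 1.1%), and TGACGTCA, the cAMP response element, also in 4 (5.97% against 2.03%). The other shares were those for GGGCGG of the Sp1 type (27 promoters, 40.3% against 38.2%), CCAAT (29, 43.3% against 41.1%), TATAAA (7, 10.4% against 15.7%) and the E-box CACGTG (5, 7.46% against 8.09%). Both strands were searched for all 9 motifs, and a match describes the letters only, not a bound site. Among the genes with no entry in the promoter table were Atp5a1, Atp5f1, Atp5mpl, Atp5s, Cox4i1, Cox4i2, Cox6a2, Cox6c, Cox8c, Cyc1, Ndufa2, Ndufa4l2, Ndufb9, Ndufs1, Sdhc, Uqcrb, Uqcrc2 and Uqcrq.

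Library totals ran from 17413153 to 26760570 assigned counts, so that 1 CPM (the count scaled to library size, with TMM factors) stood for 17.4 to 26.8 counts. The summed level of 32 hepatocyte identity genes was 39320 CPM in aged diploid library 2 and 164500 to 248100 CPM in the other 11. Aged diploid libraries 1 and 2 also stood apart in markers of other liver cells. The sum over 18 macrophage markers, Kupffer cell genes among them, was 5653 and 24970 CPM in these libraries and 1285 CPM in aged diploid 3, against 719.2 to 883.4 CPM in young diploid, 65.28 to 254.7 CPM in young polyploid and 38.49 to 198.7 CPM in aged polyploid libraries. No macrophage marker was at 0 throughout a group. Endothelial markers summed to 1563, 3828 and 266.1 CPM in the aged diploid libraries and to 62.06 to 177.4 CPM elsewhere, and stellate cell markers to 744.5, 3209 and 217.6 CPM against 12.78 to 56.07 CPM. In RNA from a sorted fraction, fewer cells of a type and less RNA per cell cannot be told apart, and results that rest on aged diploid libraries 1 and 2 are given with and without them.

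The group took between 1.4% (aged diploid 2) and 3.63% (young polyploid 1) of a library's counts. In young mice, complex I summed to 7249 ± 974 CPM in diploid and 11160 ± 1810 CPM in polyploid libraries, and in aged mice to 4711 ± 2190 and 7755 ± 4060 CPM (mean ± SD, n = 3 each). For complex II, in the same order, the sums were 2410 ± 201, 2649 ± 173, 1513 ± 766 and 2074 ± 453 CPM. Complex III summed to 3885 ± 465, 6105 ± 991, 2381 ± 1310 and 3992 ± 2110 CPM, and complex IV to 4588 ± 731, 7412 ± 1480, 2990 ± 1440 and 4917 ± 2860 CPM. The ATP synthase had the sums 8535 ± 1020, 11880 ± 1300, 5219 ± 2630 and 7690 ± 2830 CPM. For complexes I, III, IV and V all 3 young polyploid libraries lay above all 3 young diploid libraries, whereas for complex II the ranges overlapped (2178 to 2533 against 2474 to 2819 CPM). The SD was larger in both aged groups than in the young group of the same ploidy for each complex.

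**Figure D1:**
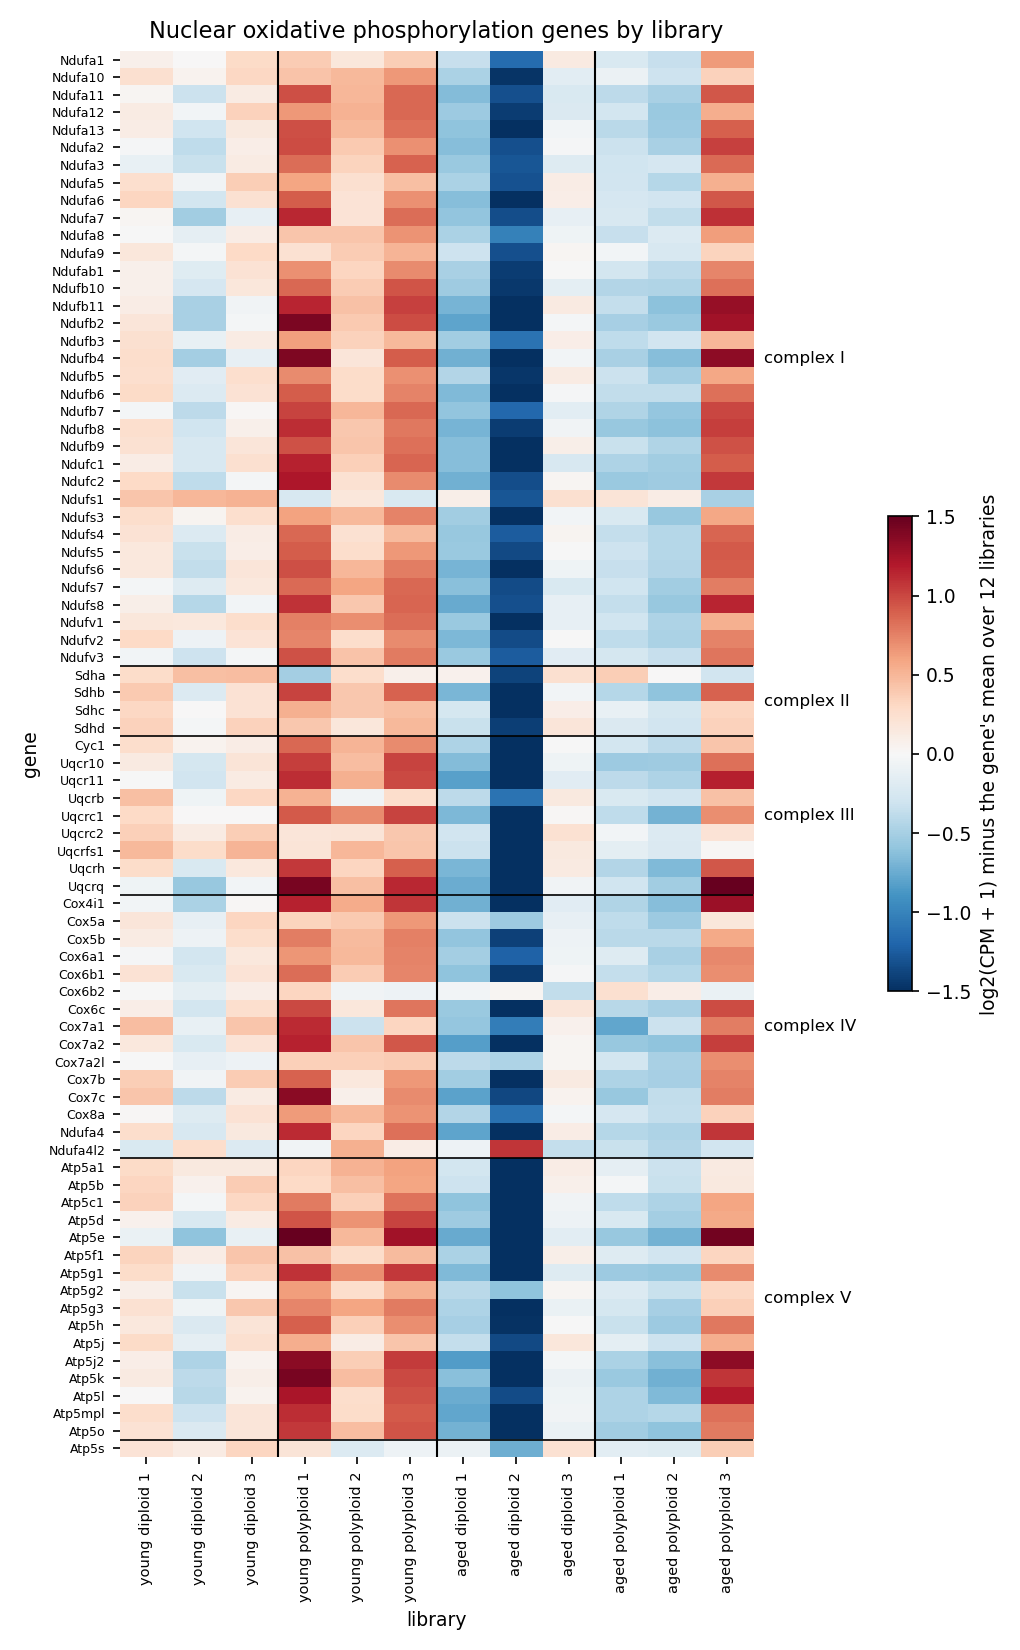
Level of tested genes of the group (vertical, grouped by complex, Atp5s last) in each of the 12 libraries (horizontal, by group), as log2(CPM + 1) minus the gene's mean over all libraries, with colours capped at 1.5 on either side. Young polyploid libraries and aged polyploid 3 are red for most genes, aged diploid 2 is blue for most genes, and Ndufs1, Sdha and Ndufa4l2 do not follow the others.

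Levels between genes were compared as CPM per kb of exon sequence. In complex I the highest were Ndufb9 (856.8 CPM per kb on average over the 12 libraries, range 191 to 1465) and Ndufa1 (645.2), both accessory subunits that carry no redox centre. Within complex II, Sdhd (376.6), a membrane anchor, and Sdhb (311.5), the iron-sulfur subunit, were highest. The small complex III subunit Uqcr11 reached 942.7 CPM per kb (range 232.3 to 1819), the highest of the whole group, followed in its complex by Uqcr10 (457). Cox6a1 (699) and Cox6b1 (681.6) led complex IV, and Atp5mpl (656.3), a small membrane subunit, and Atp5b (479.3), the catalytic beta subunit, led complex V, while Atp5s stood at 8.806 CPM per kb. These levels divide by all exon sequence of a gene. With the longest transcript in its place, Sdhb stood at 610.7, Atp5b at 1060 and Ndufa4, then the highest of complex IV, at 1407 CPM per kb. Exons of another annotated gene overlap 44.0% of the exon sequence of Atp5o, 39.0% of Ndufb6 and 30% of Ndufa13, so the counts of these 3 genes are uncertain.

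Several cytochrome c oxidase subunits exist as alternative isoforms known from liver, heart and skeletal muscle, lung or testis. Per kb, Cox4i1, Cox6a1, Cox6b1, Cox7b, Cox8a and Ndufa4 each made up at least 98.3% of their family's level in every group. Cox7b2 had no counts in any of the 12 libraries, which allows up to 3 counts in each. The counts per library were 0 to 17 for Cox4i2, 0 to 24 for Cox6a2, 0 to 11 for Cox6b2, 0 to 3 for Cox8b and 0 to 2 for Cox8c. The highest counts of Cox4i2 and Cox6a2 were in aged diploid 2, the library with the highest macrophage, endothelial and stellate marker sums. In the Cox7a family, the liver form Cox7a2 held 86.1% of the level in diploid and 89% in polyploid libraries of young mice, and 80.4% and 85.6% in those of aged mice. Cox7a2l, a related protein that takes part in supercomplex assembly, held 11.2%, 9.26%, 17.3% and 12.4%, and the muscle form Cox7a1 held 2.66%, 1.79%, 2.27% and 2.05%.

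The c-ring of the ATP synthase is built from 1 mature protein that Atp5g1, Atp5g2 and Atp5g3 all encode. In diploid and then polyploid libraries, Atp5g3 held 68% and 64.7% of the family's level per kb in young mice and 68.5% and 67.1% in aged mice. In the same order, the share of Atp5g1 was 26.9% ± 0.646, 30.4% ± 1.73, 23% ± 2.96 and 26.7% ± 4.42 (SD, n = 3 each), and the share of Atp5g2 was 5.04%, 4.91%, 8.49% and 6.2%. In aged diploid libraries, with libraries 1 and 2 included, the share of Atp5g2 ran from 6.33% to 12.5%. These shares do not depend on how libraries are scaled, but they do depend on the length used. They divide by all exon sequence, which is 4912 bases for Atp5g1, 1675 for Atp5g2 and 2181 for Atp5g3. The longest transcripts of these genes run from 723 to 4715 bases, and shares by transcript length were not computed. None of the shares was tested between groups.

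**Figure D2:**
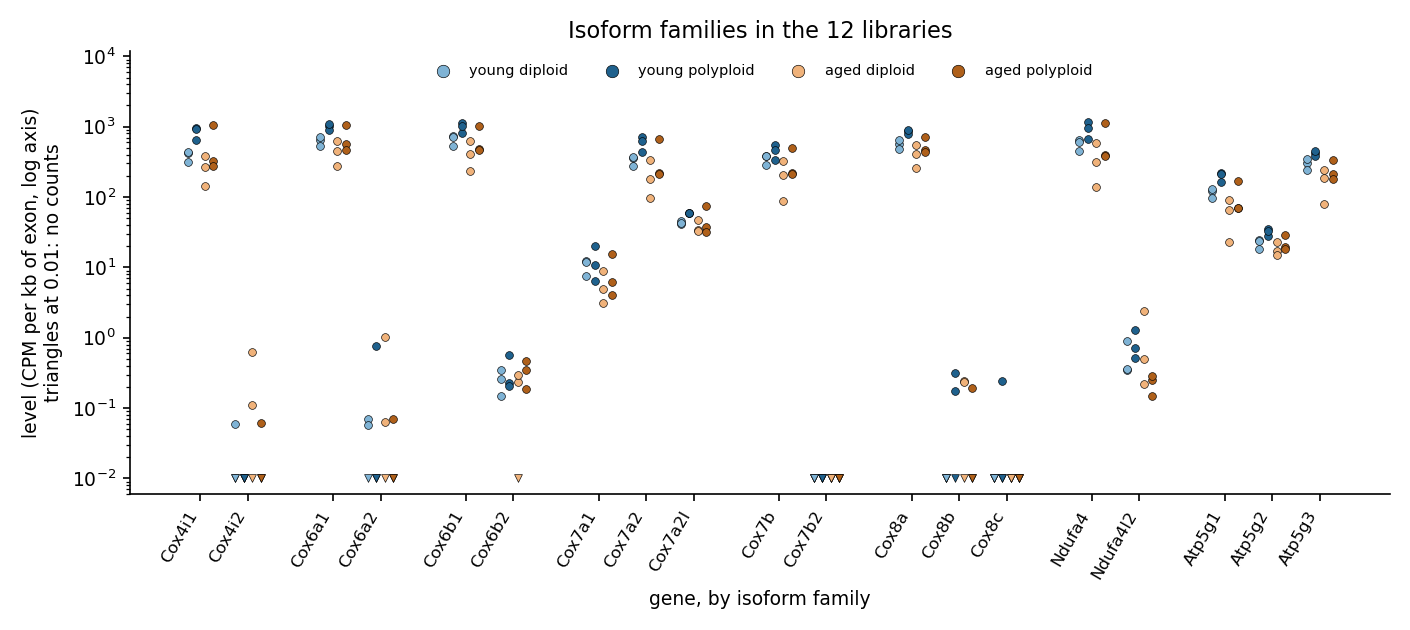
Level in CPM per kb of exon sequence (log axis) of each isoform of 8 families, with 1 point per library coloured by group and triangles for libraries with no counts. The main liver forms lie far above Cox4i2, Cox6a2, Cox6b2, Cox7b2, Cox8b, Cox8c and Ndufa4l2 in all 4 groups, whereas the 3 c-ring genes and the Cox7a genes lie closer together.

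In young mice, most genes of the group were at a higher level in polyploid than in diploid hepatocytes, by a median of 0.61 on the log2 scale over the 81 tested genes, against -0.06 over all genes tested. Scaled to hepatocyte identity genes, it was 0.38 with 69 of 81 positive (-0.29 over all genes). Under TMM the estimate was positive for 76 of 81 genes (46.4% of all genes). In 57 of 81 (70.4%) all 3 polyploid libraries lay above all 3 diploid libraries, against 16.8% of all genes tested, and in 2 genes, Ndufs1 and Sdha, all 3 lay below (19.1% of all genes). With the spread shared by all 4 groups, 0 of 81 passed an adjusted p of 0.05 in edgeR's quasi-likelihood test, and neither did any other gene (0 of 14061). At an unadjusted p under 0.05 there were 4 genes of the group (5.22% of all genes tested), DESeq2 and limma voom also called 0, and the smallest adjusted p was 0.393. When the young libraries were fitted alone, without the wide spread of the aged libraries, 28 of 80 genes rose and 1, Ndufs1, fell, where 5.49% of all genes tested rose and 6.36% fell. With the mouse as a block in the fit of all 12 libraries, 0 of 81 passed (0.541% of all genes did) and 40 had an unadjusted p under 0.05, all higher, where 10.2% of all genes were higher at that threshold. Without aged diploid libraries 1 and 2, the blocked fit gave 66 genes that rose and 2, Ndufs1 and Sdha, that fell, where 15% of all genes tested rose and 17.4% fell. All these fits take the young estimate from the same 6 libraries and differ in the spread. In these 6 libraries the macrophage marker sum was also lower in each polyploid library than in each diploid one, and its part in the difference was not tested.

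Atp5e, the epsilon subunit of the central stalk of the ATP synthase (chr2:174461072-174464105, minus strand, GRCm38), had the smallest p in young mice. Its exonic reads stood at 183, 129 and 181.8 CPM in young diploid and at 612.1, 274.7 and 473.2 CPM in young polyploid libraries, and at 116.4, 54.74 and 175.6 CPM in aged diploid and 132.1, 119.9 and 538.5 CPM in aged polyploid libraries. All young polyploid values lay above all diploid values of either age, while the aged groups overlapped, with aged polyploid 3 far above the other 2. The log2 difference between ploidies in young mice was 1.46 ± 0.596 (SE; adjusted p = 0.393 with edgeR over 4 groups, 0.0233 with the young groups alone). Ndufv3, an accessory subunit next to the NADH-oxidising site, stood at 117.7, 98 and 119.3 CPM in young diploid and 236.8, 163.7 and 209.3 CPM in young polyploid libraries (log2 difference 0.86, adjusted p = 0.393 with edgeR). The accessory subunit Ndufb7 had 0.94 (adjusted p = 0.395). The 2 genes lowest in young polyploid libraries were a core subunit and a catalytic subunit. Both have more exon sequence (8086 and 3883 bases) than the group's median of 1495 bases. Ndufs1, the largest iron-sulfur subunit of complex I (chr1:63143596-63176833, minus strand), stood at 222.4, 236.3 and 239.8 CPM in young diploid and 141.1, 187.7 and 142.7 CPM in young polyploid libraries. Sdha, the flavoprotein of complex II (chr13:74322254-74350280, minus strand), stood at 877.2, 988.4 and 997.7 against 507.3, 868.2 and 764.6 CPM. The log2 differences over 4 groups were -0.57 for Ndufs1 and -0.42 for Sdha (adjusted p = 0.486 and 0.654 with edgeR), and Atp5s had -0.26.

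Over both ages, in the fit without the mouse, the level was higher in polyploid hepatocytes by a median of 0.65 on the log2 scale. The median was -0.06 for all genes tested, and 77 of 81 estimates of the group were positive (46% of all genes). In 69 of 81 genes (85.2%) the polyploid library lay above the diploid library in all 6 mice, against 14.4% of all genes. Without the mouse in the model, edgeR called 0 of 81 (0.882% of all genes tested were called higher and 8.67% in either direction), with 37 at an unadjusted p under 0.05 in the higher direction (11.1% of all genes), and DESeq2, also without it, called 13 higher (5.26% of all genes). With the mouse as a random effect, voom called 12 higher (5.18%). With the mouse as a block, 51 of 81 rose and 0 fell, where 8.89% of all genes tested rose. Leaving out aged diploid libraries 1 and 2 as well gave 68 that rose (16.3% of all genes) and 2 that fell (20.7%), again Ndufs1 and Sdha. In the blocked fit of all 12 libraries, 18 of 18 macrophage markers (median -4.85), 17 of 18 endothelial markers (median -2.47) and 12 of 12 stellate cell markers (median -3.02) fell in polyploid libraries, and their part in the group's difference was not tested. By complex the 51 were 27 of 36 for complex I, 1 of 4 for complex II, 5 of 9 for complex III, 8 of 15 for complex IV and 10 of 16 for complex V. Scaling to the hepatocyte identity genes in place of TMM lowered the median of all genes to -0.77 and that of the group to 0.10, so the group then still stood above all genes but close to 0 itself.

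**Figure D3:**
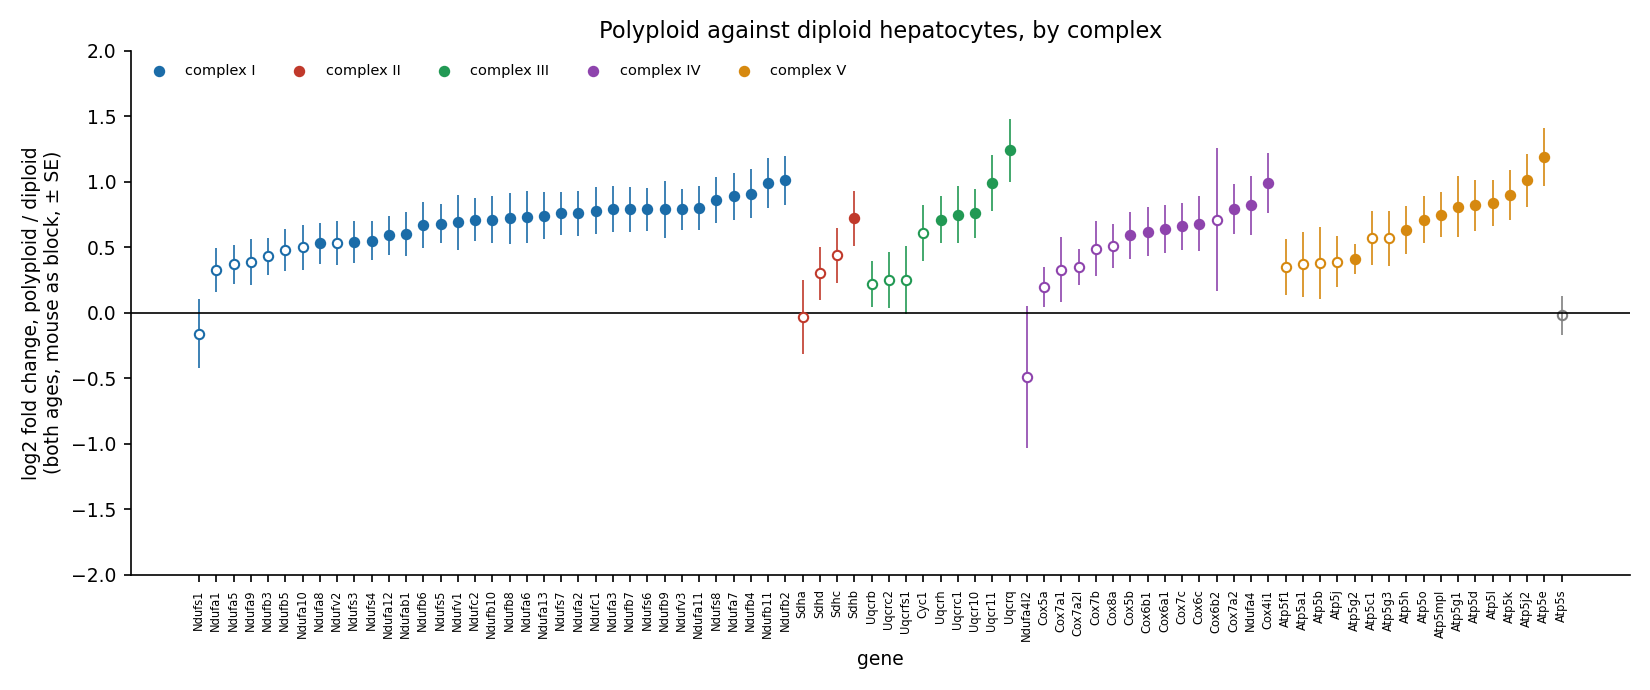
Log2 difference between polyploid and diploid libraries over both ages for tested genes of the group, from the fit with the mouse as a block, ordered by size within each complex (points, estimate; bars, SE; filled points, adjusted p under 0.05; grey, Atp5s). The 51 filled points all lie above 0 under TMM scaling, and Ndufs1, Sdha, Ndufa4l2 and Atp5s lie below it.

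The 10 genes with the smallest p under the block were Atp5e, Ndufb2, Ndufb11, Uqcrq, Ndufv3, Atp5j2, Ndufb4, Ndufa7, Ndufs8 and Atp5l, with adjusted p from 0.00856 to 0.0125 (edgeR). Of these, Ndufs8, which holds iron-sulfur clusters on the path to ubiquinone, is the only core subunit of complex I, and the others are accessory or small subunits. Uqcrq, a small subunit of complex III (chr11:53427922-53430831, minus strand), stood in young mice at 531.7, 375.3 and 540.1 CPM in diploid and 1497, 762.8 and 1219 CPM in polyploid libraries, and in aged mice at 331.8, 118.6 and 536.3 against 452.6, 389.2 and 1588 CPM. Its polyploid library was the higher in each mouse, by 0.45, 1.71 and 1.57 on the log2 scale in aged mice 1, 2 and 3 and by 1.49, 1.02 and 1.17 in young mice. The blocked estimate was 1.24 ± 0.240 (SE, adjusted p = 0.0096 with edgeR). For Ndufb2, an accessory subunit of the membrane arm of complex I (chr6:39592574-39603382, plus strand), the differences were 0.30, 1.29 and 1.29 in aged and 1.24, 0.89 and 1.02 in young mice, with a blocked estimate of 1.01 ± 0.190 (adjusted p = 0.00872 with edgeR). The values of Atp5e per mouse were 0.18, 1.13 and 1.62 in aged and 1.74, 1.09 and 1.38 in young mice (blocked estimate 1.19 ± 0.224). In all 3 genes aged mouse 1 gave the smallest difference.

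In this and the next paragraph, class medians come from the fit without the block, and counts of genes that rose from the blocked fit. Within complex I, the 7 core subunits, which form the electron-transferring matrix arm, had a median difference of 0.54 over both ages, and 4 of 7 rose under the block. The 29 nuclear accessory subunits had a median of 0.75, and 23 of 29 rose. Among core subunits, Ndufs1 had a blocked estimate of -0.16 (adjusted p = 0.689 with edgeR). Ndufv1, which binds NADH and flavin, had 0.63 without the block and 0.69 with it (adjusted p = 0.0444 with edgeR). For complex II, Sdhb rose (805.4, 532.1 and 713.9 CPM in young diploid against 1238, 810.1 and 1129 in young polyploid libraries, and 381.6, 170.8 and 594.9 in aged diploid against 454.5, 402.9 and 1136 in aged polyploid), with a blocked estimate of 0.72 ± 0.211 (adjusted p = 0.0412 with edgeR). Its partner Sdha had a blocked estimate of -0.03 (adjusted p = 0.949), and the anchors Sdhc and Sdhd had 0.36 and 0.25 without the block.

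In complex III, the 4 redox and core proteins had a median of 0.36 over both ages without the block. With it 1 of 4, Uqcrc1, rose (0.71 without the block, 0.75 with it). The 5 small subunits had a median of 0.77, and 4 of 5 rose. Cyc1, which hands electrons to cytochrome c, had a blocked estimate of 0.61 (adjusted p = 0.0721 with edgeR), and Uqcrfs1, the Rieske iron-sulfur protein, 0.25 (adjusted p = 0.515). For complex IV, Cox4i1, a subunit involved in the complex's regulation, rose: 655.8, 486.3 and 685.2 CPM in diploid against 1504, 993.5 and 1424 in polyploid libraries of young mice, and 412.1, 225.4 and 602.4 against 496, 434.8 and 1655 CPM in aged mice (blocked estimate 0.99, adjusted p = 0.0176). All its young polyploid values lay above all diploid values, and aged polyploid 1 and 2 lay within or below the young diploid range. In the ATP synthase, the 5 subunits of the F1 head and central stalk had a median of 0.54 (2 of 5 rose), the 3 c-ring genes 0.51 (2 of 3), the 4 peripheral stalk subunits 0.49 (2 of 4) and the 4 small membrane subunits 0.96 (4 of 4). The catalytic pair Atp5a1 and Atp5b had blocked estimates of 0.37 and 0.38 (adjusted p = 0.302 and 0.347 with edgeR).

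Gene length moved with this comparison. The median exon length was 1495 bases for the 81 genes and 3667 for all genes tested, and 47 of the 81 fell in the shortest length quintile of all genes. In that quintile as a whole, the median difference between ploidies was 0.49 in young mice, 0.46 at the older age and 0.47 with the ages combined. In the longest quintile it was -0.41, -0.29 and -0.35. Under the block, 21.8% of all genes in the shortest quintile rose. Genes of the group inside the shortest quintile had medians of 0.67 and 0.72 in young and aged mice and 0.69 over both ages, and those outside it 0.52, 0.65 and 0.57. By longest transcript, the 46 genes under 1000 bases had a median of 0.72 over both ages and the 35 longer ones 0.54. The classes above differ in the same respect, with a median longest transcript of 1623 bases in core and 875 bases in accessory subunits of complex I, and of 1586.5 bases in the redox and core proteins and 535 bases in the small subunits of complex III.

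When each library was corrected for its relation of log2 CPM to exon length, the group's median difference was 0.24 in young and 0.25 in aged mice, and 0.25 over both ages, with 60, 67 and 62 of 81 estimates positive. With this correction and the block together, 13 of 81 genes rose, where 4.31% of all genes tested rose, and 12 of these 13 were among the 51. The 13 were Ndufb2, Atp5l, Ndufab1, Atp5j2, Ndufb7, Uqcrq, Atp5e, Ndufv3, Atp5g1, Ndufa11, Uqcrc1, Ndufb5 and Ndufa7. All have more exon sequence than the group's median of 1495 bases, from 1701 (Ndufa7) to 6883 bases (Ndufab1). The correction used all exon sequence of a gene, which can exceed its transcript. It raised the blocked estimates of Ndufb2, Atp5l, Ndufab1, Ndufb7, Atp5g1, Uqcrc1 and Ndufb5, and lowered those of Atp5j2, Uqcrq, Atp5e, Ndufv3, Ndufa11 and Ndufa7. With both, Ndufb2 had 1.12 (adjusted p = 0.00569), Atp5l 0.99 (adjusted p = 0.0102) and Atp5e 0.87 (adjusted p = 0.0209, all edgeR). For Ndufs1 and Sdha, with 8086 and 3883 bases of exon sequence, the blocked estimates in young mice were -0.58 and -0.45. With the correction they were -0.28 and -0.40 (adjusted p = 0.696 and 0.576, edgeR). The part of gene length in the remaining differences was not tested further.

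**Figure D4:**
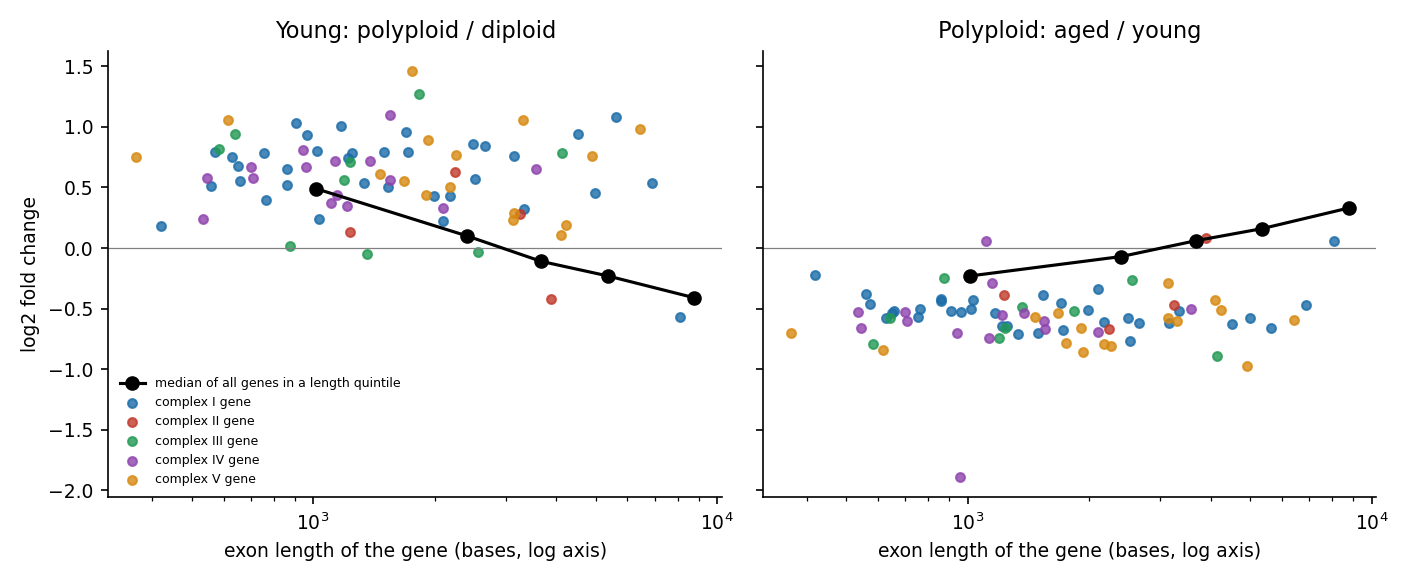
Log2 difference (vertical axis) between polyploid and diploid libraries in young mice (left) and between aged and young polyploid libraries (right) against exon length (bases, log axis), for tested genes of complexes I to V (points by complex) and as the median of all genes tested in each length quintile (black line). On the left the line falls from 0.49 to -0.41 with length and most genes of the group lie above it, and on the right it rises from -0.23 to 0.33 and most genes of the group lie below it.

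In aged mice, the median difference between polyploid and diploid libraries was 0.66 on the log2 scale under TMM scaling (0.02 for all genes) and -0.24 when scaled to hepatocyte identity genes (-1.23 for all genes). Under TMM 80 of 81 estimates were positive (51% of all genes), but 0 of 81 genes had all polyploid libraries above all diploid ones (6.36% of all genes did). No gene of the group passed with edgeR, DESeq2 or voom. With edgeR, 0.363% of all genes were called higher and 9.33% lower, and the group's smallest adjusted p was 0.17, that of Ndufa4l2. At an unadjusted p under 0.05 there were 2 genes higher (4.17% of all genes) and 1 lower (16.3%). The median over the group within a mouse was 0.24 in aged mouse 1, 1.04 in aged mouse 2 and 0.79 in aged mouse 3, against 0.65, 0.56 and 0.57 in young mice 1, 2 and 3. With the mouse as a block, 3 of 81 rose, a share near the 3.51% of all genes tested that rose. The 3 were Uqcrq (1.25 ± 0.343, adjusted p = 0.0436), Ndufb2 (0.96 ± 0.270, adjusted p = 0.0463) and Ndufb11 (0.96 ± 0.270, adjusted p = 0.0469, edgeR). With the length correction added, Ndufb2 alone rose (1.93% of all genes). Macrophage markers moved with this comparison, with 17 of 18 called lower in polyploid libraries (median -6.89), as did 18 of 18 endothelial markers (median -4.75), while 30 of 32 hepatocyte identity genes had positive estimates (median 0.53). Without aged diploid libraries 1 and 2 the median was 0.12, and 0.35 over both ages. With those libraries left out and the mouse as a block, the medians were 0.77, which rests on aged mouse 3 alone, and 0.68. With 1 library left out the median ran from 0.20 without aged polyploid 3 to 1.09 without aged diploid 3.

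Among positive estimates, the genes of smallest p in aged mice were Uqcr11 (1.10, adjusted p = 0.241), Ndufa3 (0.82, adjusted p = 0.243) and Ndufv3 (0.77, adjusted p = 0.257, edgeR). Uqcr11 stood at 295.5, 148.9 and 460 CPM in aged diploid and 396.5, 376.6 and 1166 CPM in aged polyploid libraries, with aged diploid 3 above 2 of the polyploid libraries. Ndufa4l2, a paralogue of Ndufa4 that is known to respond to hypoxia, was the only gene with a negative estimate (-2.18 ± 0.863). It had between 3 and 77 counts per library and stood at 0.4775, 2.268 and 0.2116 CPM in aged diploid and 0.2383, 0.1439 and 0.2749 CPM in aged polyploid libraries. Its highest value was in aged diploid 2, and without aged diploid libraries 1 and 2 the estimate was 0.03. Ndufs1 stood at 177, 68.29 and 197.2 CPM in aged diploid and 191.6, 180.9 and 118.7 CPM in aged polyploid libraries, with differences per mouse of 0.11, 1.40 and -0.73. For Sdha these were 0.31, 1.40 and -0.53, so that aged mouse 3 gave a negative value for both genes, as did the 3 young mice (-0.66, -0.33 and -0.75 for Ndufs1, and -0.79, -0.19 and -0.38 for Sdha).

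**Figure D5:**
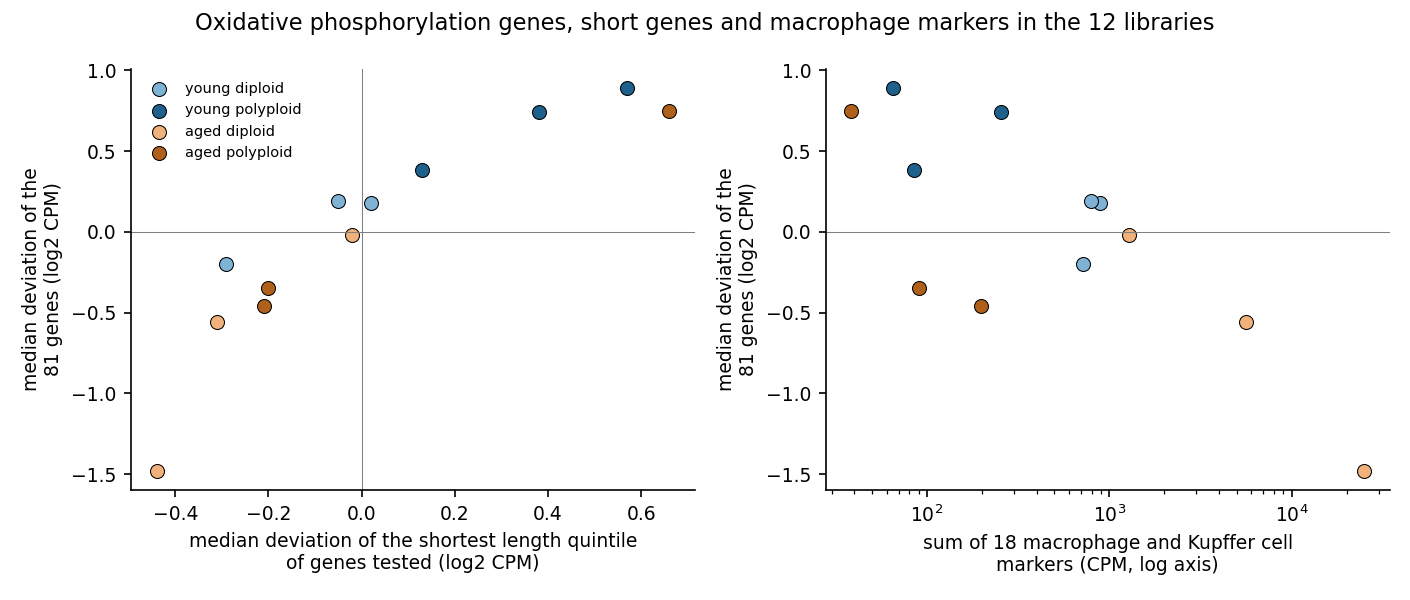
Median deviation of the 81 genes from their mean over all libraries (log2 CPM, vertical axis) in each of the 12 libraries (points by group), against the same for all genes in the shortest length quintile (left) and against the summed level of 18 macrophage markers (CPM, log axis, right). Aged diploid 2 has the lowest group level (-1.48) and the highest macrophage sum, and aged polyploid 3 (0.75) lies with the young polyploid libraries (0.38 to 0.89).

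The library medians set out the spread behind the aged comparisons. The median level over the 81 genes was 163.6, 84.64 and 240.3 CPM in aged diploid libraries 1, 2 and 3 and 186.9, 180.9 and 406.8 CPM in aged polyploid libraries. In young mice it was 267.4, 212.3 and 267.7 CPM in diploid and 462.1, 306.2 and 396.1 CPM in polyploid libraries. Aged polyploid 3 thus lay within the young polyploid range, and aged polyploid 1 and 2 lay below all young libraries. As a deviation from the mean on the log2 scale, aged diploid 2 stood at -1.48 and the shortest length quintile of all genes in it at -0.44, while aged polyploid 3 stood at 0.75 with the shortest quintile at 0.66.

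The median difference with age in diploid hepatocytes was -0.62 on the log2 scale under TMM scaling (0.09 for all genes), with 1 of 81 estimates positive (55.3% of all genes), and 0.13 when scaled to hepatocyte identity genes (1.33 for all genes). In polyploid hepatocytes it was -0.57 (0.05 for all genes), with 4 of 81 positive (53.2% of all genes). No gene passed in either fraction with edgeR, DESeq2 or voom, where 3.93%, 11.7% and 0.0498% of all genes passed with these tools in diploid and 0.0356%, 1.08% and 0.0284% in polyploid libraries. The unadjusted p was under 0.05 for 2 genes in diploid (2.88% of all genes in the lower direction) and 1 in polyploid hepatocytes (2.29%), and the smallest adjusted p was 0.192 and 0.477. All aged libraries lay below all young ones in 16 of 81 genes in diploid (19.8%, against 7.57% of all genes) and in 13 of 81 in polyploid hepatocytes (against 6.82%). By complex the medians in diploid hepatocytes were -0.60, -0.62, -0.68, -0.56 and -0.64 for complexes I to V, and in polyploid hepatocytes -0.52, -0.43, -0.58, -0.60 and -0.63. In diploid hepatocytes the group stood below all genes under both scalings, although its own sign differed. In diploid libraries all 18 macrophage markers had positive estimates with age (median 3.72, 5 passing), as did all 18 endothelial markers (median 3.41, 15 passing) and all 12 stellate cell markers (median 4.82, 9 passing). All 32 hepatocyte identity genes had negative estimates (median -0.57, 0 passing). The part of these cell types in the group's difference was not tested. Without aged diploid libraries 1 and 2, which hold most of the marker transcripts, the diploid median was -0.09. It was -0.43 with a block on the replicate number, which ties young and aged mice that share only that number. With 1 library left out it ran from -1.07 without aged diploid 3 to -0.34 without aged diploid 2, and without aged polyploid 3 the polyploid median was -1.14. The shortest length quintile of all genes had medians with age of -0.11 in diploid and -0.23 in polyploid hepatocytes, and after the length correction the group's medians were -0.43 and -0.42.

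In diploid hepatocytes Ndufa10, an accessory subunit of complex I, stood at 269.9, 236 and 281.8 CPM in young and 163.8, 81.34 and 203.8 CPM in aged libraries, which did not overlap (-0.81 ± 0.330, adjusted p = 0.192 with edgeR). Ndufa12 (-0.81, adjusted p = 0.232) and Uqcrfs1 (-0.89, adjusted p = 0.258) came next. Uqcrfs1 stood at 518.3, 446.8 and 528.8 CPM in young and 296.4, 100.4 and 410.4 CPM in aged diploid libraries. Ndufa4l2 was the only gene with a positive estimate (0.95, adjusted p = 0.546). In polyploid hepatocytes Cox5a, a matrix-side subunit of complex IV, stood at 246, 254.8 and 305.2 CPM in young and 148.5, 132.4 and 217.9 CPM in aged libraries, which did not overlap (-0.69 ± 0.266, adjusted p = 0.477). Ndufa4l2 had -1.89 (adjusted p = 0.545) and Atp5g2 -0.54 (adjusted p = 0.547), and positive estimates of 0.05 to 0.08 were found for Sdha, Ndufs1, Atp5s and Cox6b2. Atp5b stood at 2392, 2001 and 2477 CPM in young diploid and 1542, 599.4 and 2012 in aged diploid libraries, and at 2348, 2614 and 2881 in young polyploid and 1863, 1520 and 2119 in aged polyploid libraries. Only aged diploid 3 reached the range of the young libraries of its fraction. The differences with age for other subunits in diploid and polyploid hepatocytes were -0.90 and -0.77 for Ndufv1, -0.84 and -0.67 for Sdhb, -0.73 and -0.74 for Cyc1, -0.77 and -0.89 for Uqcrc1, -0.56 and -0.60 for Cox4i1, and -0.61 and -0.58 for Atp5a1.

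Whether the ploidy difference itself depended on age was tested as an interaction. Its median over the group was 0.04 (0.00 for all genes). With edgeR 0 of 81 genes passed and 0 of all genes did, 1 of 81 had an unadjusted p under 0.05 with a negative estimate (8.69% of all genes), and DESeq2 and voom called 0 of 81. That gene, Ndufa4l2, had -2.84 ± 1.17 (adjusted p = 0.396), followed by Ndufs1 with 0.72 (adjusted p = 0.674), Sdha with 0.68 (adjusted p = 0.741) and Atp5s with 0.44 (adjusted p = 0.768). Among negative estimates, Atp5g2 had -0.28 and Cox5a -0.24. Without aged diploid libraries 1 and 2 the median was -0.48, and with the block in addition it was 0.17 (64 of 81 positive). The aged part of the blocked fit rests on 1 mouse, while the unblocked fit sets 1 aged diploid library against all aged polyploid libraries. These fits thus differ in the libraries compared, and the cause of the change in sign was not tested.

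Other genes of the pathway were taken from lists chosen with these data known. The 13 transcripts encoded in mitochondrial DNA had median ploidy differences of 0.63 (13 of 13 positive) in young and 0.14 (10 of 13) in aged mice, and of 0.30 (12 of 13) over both, and 0 of 13 passed with or without the block. Of all genes tested over both ages, 0.882% rose without the block, and 8.89% rose and 15.2% fell with it. Of 48 assembly factors, 41 had positive estimates over both ages (median 0.40), 0 passed without the block (Uqcc3, an assembly factor of complex III, had 0.61, adjusted p = 0.0726 with edgeR), and 15 rose with it. Of 20 genes of coenzyme Q synthesis and electron carriers, 17 were positive (median 0.26) and 1 rose without the block, the coenzyme Q synthesis gene Coq8b (0.84 ± 0.214, adjusted p = 0.0319 with edgeR), while 7 rose and 1 fell with it. Of 24 mitochondrial import genes, 21 were positive (median 0.39) and 1 rose without the block, Timm13 (0.96 ± 0.265, adjusted p = 0.0439), while 9 rose with it. Of 17 genes of the citric acid cycle, which supplies NADH and succinate, 12 were positive with a median of 0.08, and 0 passed with or without the block. Of 17 regulators of the pathway, 8 were positive with a median of -0.14, and with the block 1 rose and 1 fell. The part of gene length in the differences of these lists was not tested. With age, the medians in diploid and polyploid hepatocytes were -0.37 and -0.22 for assembly factors, -0.55 and -0.28 for coenzyme Q genes and carriers, and -0.56 and -0.27 for the citric acid cycle.

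The ploidy difference was also set beside the promoter matches. Over both ages its median was 0.65 for the 17 tested genes with NRF1-type letters and 0.70 for the 48 without. It was 0.68 for the 16 with ETS-type letters and 0.69 for the 49 without, and 0.78 for the 7 with YY1-type letters and 0.68 for the 58 without. These medians describe the genes with a promoter entry and were not tested. Among the printed genes, Atp5e with an ETS-type match had 1.33 over both ages.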

How the data were processed

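RNA from 12 libraries of sorted mouse hepatocytes (3 per group) was analysed as whole-number counts per gene, which the authors deposited with exon coordinates and exon length. Per the submitters' processing notes, Trimmomatic 0.36, STAR 2.5.2b, featureCounts of Subread 1.5.2 and GRCm38 (mm10) were used. Whether counting used strand, which annotation release it used and what it counted (fragments or reads) the sources used here do not say, so overlapping genes may not be separable. Identifiers were named with GENCODE mouse release M21 (49056 of 49315 matched, 99.98% at the same place, and the other 259 held 0.008% of counts). No 2 libraries were identical.

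Genes kept by edgeR's filterByExpr (14061 of 27518 with at least 1 count) were fitted with edgeR 4.0.16 in R 4.3.3 over all 4 groups (TMM factors, quasi-likelihood F test, prior count 1, Benjamini-Hochberg adjustment over all genes, threshold 0.05), for 6 comparisons: ageing in each fraction, ploidy in each age, ploidy over both ages and the interaction. P-values measure the spread between libraries, each of 1 mouse. The series' design text has both fractions taken from each of the 6 mice. Same-numbered fractions deviated together (correlation of deviations from group means over 8852 genes, 0.441, 0.499 and 0.492 in aged and 0.444, 0.601 and 0.377 in young mice), so the block fits use the mouse for ploidy. For ageing, the block pairs different mice that share only a number. The comparison of ploidy over both ages, with and without the block, was also run on simulated counts. These held no mouse effect, length trend or other cell types, so that run cannot speak for how the fits handle them.

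Alternatives were RLE (median of ratios), upper quartile, no factors and hepatocyte identity scaling, no filter and a mean of at least 5 CPM, DESeq2 1.42.0, limma 3.58.1 voom (random effect for the mouse), the block, a loess correction on exon length (span 0.75), the compared groups alone, and libraries left out. The members, lists, alternatives and the choice of libraries to leave out were made with earlier results of these data known. Named genes were the passing genes of smallest p (up to 10) or, where none passed, the 3 of smallest p in each direction, the 2 highest per length in each complex, all isoform families, and fixed catalytic or core subunits. Those named from the block and other alternatives, Uqcrq and Ndufb2 per mouse, and the printed promoters were chosen after their values were seen. In all, 1 gene of the group is counted in the totals but not reported here by name or plotted singly.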

Additional observations from a re-analysis of the deposited data

How the results depend on the processing

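The blocked fit (diploid and polyploid fractions paired by mouse) called 3 genes of the group in aged mice and 51 over both ages, against 0 without it. The 3 are a share near that of all genes, of which 3.51% were called higher. With the exon length correction added, the blocked fit called 1 in aged mice (Ndufb2, where 1.93% of all genes were called higher) and 13 over both ages. Without aged diploid libraries 1 and 2 the blocked fit called 68 (young), 61 (aged, 60 of them higher, where 9.25% of all genes were called higher and 9.78% lower) and 70 (both ages), but it then has 1 aged diploid library, which is assumed to vary like the others, so its aged estimate rests on 1 mouse. The young groups alone gave 29 calls, and over both ages the absence of a filter gave 14 (all higher, as were 1.84% of all genes), DESeq2 13 and voom 12. The block changed no call of the group in the interaction. Nor did it in the ageing comparisons, where the block is only the replicate number that different mice share. Scaling to hepatocyte identity genes moved group medians to 0.13 (ageing, diploid), -0.24 (ploidy, aged), 0.10 (ploidy, both ages) and -0.60 (interaction), while it moved the medians of all genes to 1.33, -1.23, -0.77 and -1.02. Under it, ageing estimates in diploid libraries became 0.00 for Ndufa10 and 0.05 for Ndufa12, ploidy estimates in aged mice -0.18 for Ndufa3 and -0.24 for Ndufv3, and the Atp5s interaction -0.30. Without aged diploid libraries 1 and 2 the median for ploidy in aged mice was 0.12, and 0.77 with the block.

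Leaving out 1 library at a time gave 0 to 3 calls for ageing in diploid (3 without aged diploid 3: Ndufa10, Atp5f1 and Uqcrfs1, all lower, as were 1.66% of all genes), 0 to 1 for ploidy in aged mice (Ndufa4l2, lower, without aged diploid 3, where 18.6% of all genes were lower) and 0 to 38 for ploidy over both ages (38 higher without aged diploid 3, as were 6.98% of all genes, and 3 higher, Atp5e, Ndufb7 and Ndufv3, without aged polyploid 2, as were 2.73%, a share near that of the group). The median for ageing in polyploid libraries ran from -1.14 (without aged polyploid 3) to -0.37, and that of the interaction from -0.51 (without aged polyploid 3) to 0.47. The ageing calls over all genes were also unstable in diploid libraries, at 552 in edgeR with TMM, 4 with RLE factors, 1643 with DESeq2 and 2974 without aged diploid 3. Ndufa4l2 turned in ageing, diploid, to -1.28 without aged diploid 1 and 2 (-1.03 with the block on replicate number). With 1 library left out it ran between -0.63 (without aged diploid 2) and 1.51. For ploidy it turned in aged mice to 0.03 without aged diploid 1 and 2 (0.35 with the block), and over both ages to 0.35 (0.51 with the block), with a range of -0.95 to 0.03 (without aged diploid 2) when 1 library was left out. The small positive ageing estimates in polyploid libraries turned for Ndufs1 to -0.20 with the length correction, -0.21 with the block on replicate number added. With 1 library left out they ran from -0.10 to 0.20 for Ndufs1 (negative without aged polyploid 1 or 2 or young polyploid 1 or 3), from -0.15 to 0.21 for Sdha (negative without aged or young polyploid 1) and from -0.21 to 0.16 for Atp5s (negative without aged polyploid 3 or young polyploid 2 or 3). Over both ages Ndufs1 turned to 0.06 with the block and length correction, and Sdha ran from -0.23 to 0.10 with 1 library left out (positive without aged diploid 3, aged polyploid 3 or young polyploid 1). The interactions of Ndufs1 and Sdha became -0.17 and -0.09 with the block and without aged diploid 1 and 2. Except where its construction shows it, the cause of each shift was not tested. Under the alternatives run, 139 counts of called genes stayed at 0 and 15 did not. Of the group's medians, 147 shifted by less than the pooled replicate SD (0.535), whatever their sign. Another 3 shifted by more with the same sign, and 4 by at least that much with a change of sign. This SD is close in size to the group's medians, so the 147 do not show that a difference held. The ageing median in diploid libraries, for example, went from -0.62 to -0.34 without aged diploid 2, a shift within the SD. Of the values of named genes, 745 kept their direction and side of the threshold. A further 38 passed the threshold in addition, and 30 changed sign. Depth limits only the isoforms of few counts and Ndufa4l2.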
